A study of Mus musculus with 6 samples.

Results

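The miR-26 family of the mouse was followed here through its mature members mmu-miR-26a and mmu-miR-26b (miR-26a and miR-26b), taken by name from a table of 698 mature microRNAs (miRNAs) measured by small RNA sequencing. Both members were present and both were among the 193 miRNAs abundant enough to be tested. The libraries came from the left ventricle of 3 HCM mutant mice and 3 wild-type (WT) mice. The mutants were heterozygous for the R403Q change in Myh6, the gene of alpha-myosin heavy chain in heart muscle, and are labelled aMHC403/+. HCM is taken here as hypertrophic cardiomyopathy, a thickening of the heart muscle. All 6 mice were aged, at more than 50 weeks, and the labels give no further treatment, strain or sex. The tissue was the whole ventricle wall, so that fewer cells of a type and less RNA per cell cannot be told apart.

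A miRNA guides the silencing complex to messenger RNAs that pair with its seed, bases 2 to 8 counted from the 5′ end, and lowers their translation and stability. miRNAs with a common seed therefore share many predicted targets. The miR-26 genes lie in introns of the Ctdsp genes, which encode small phosphatases of the RNA polymerase II tail. miR-26a is known to repress Ezh2, a histone methyltransferase, and in rodent hearts it has been described as a restraint on hypertrophic growth and on collagen production by cardiac fibroblasts.

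The mature sequences show what the pair shares and where its members part. Each is given 5′ to 3′ from RefSeq on build GRCm38.p6, with the seed in capitals, and each was identical to the sequence in the deposited table after T was read as U.
miR-26a: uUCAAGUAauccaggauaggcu
miR-26b: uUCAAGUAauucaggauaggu
miR-26b*: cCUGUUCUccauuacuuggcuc
miR-26a and miR-26b had the seed UCAAGUA in common, and no other of the 698 miRNAs in the table carried it. They were identical over their first 10 bases and at 19 of 21 aligned positions. Counted from the 5′ end of miR-26a, they differed by C11U and C21U, and miR-26a was 22 bases long against 21 for miR-26b. miR-26b*, the minor arm cut from the other side of the miR-26b precursor, had a different seed, CUGUUCU.

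The precursors show why the table has a single entry for miR-26a. It is made from a pair of genes whose hairpins differ while the mature arm, in capitals below, does not.
Mir26a-1: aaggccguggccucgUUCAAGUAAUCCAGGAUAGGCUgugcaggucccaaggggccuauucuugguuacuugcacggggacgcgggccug
Mir26a-2: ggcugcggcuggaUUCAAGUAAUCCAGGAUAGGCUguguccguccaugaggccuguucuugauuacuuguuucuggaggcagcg
Mir26b: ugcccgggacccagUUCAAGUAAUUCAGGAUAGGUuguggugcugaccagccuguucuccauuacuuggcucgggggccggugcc
Mir26a-1 lies on chromosome 9 at 119031796 to 119031885, in intron 5 of Ctdspl. Mir26a-2 lies on chromosome 10 at 126995530 to 126995613, in intron 5 of Ctdsp2, and a shorter annotated transcript of that gene begins at its last base. Mir26b lies on chromosome 1 at 74394310 to 74394394, in intron 4 of Ctdsp1. All are on the plus strand, like their hosts (GRCm38, introns from GENCODE M21). Reads of miR-26a cannot be assigned to either of its genes.

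The libraries held 2483486 to 4267939 miRNA reads in the mutants and 3647223 to 5223636 in WT. Levels are given as reads per 1000000 miRNA reads of the library (RPM), so each is a share of the whole. The 6 listed miRNAs of heart muscle cells were all detected and summed to 400920 to 463232 RPM in the mutants and 425038 to 503987 RPM in WT. miR-1 and miR-208a were the largest of them. Within this sum miR-208b averaged 17919 RPM in the mutants and 11455 RPM in WT, whereas miR-499 averaged 11697 RPM and 16971 RPM. The 4 listed fibroblast miRNAs, miR-21, miR-214, miR-199a-5p and miR-199a-3p, summed to 3931 to 8512 RPM in the mutants, above all WT libraries at 1613 to 3040 RPM. Of these, miR-21 alone averaged 4904 RPM in the mutants and 1780 RPM in WT. The sums of the listed endothelial, smooth muscle and blood miRNAs overlapped between the genotypes. The blood sum pooled members that went in both directions. Of these, miR-142-3p averaged 1728 RPM in the mutants and 1065 RPM in WT (limma adjusted p = 0.0333). miR-142-5p and miR-223 also had higher means in the mutants. miR-486, at 2177 RPM in the mutants and 2355 RPM in WT, had a lower mean, as did miR-150, miR-144 and miR-451. The 3 listed miRNAs of tissue outside the heart, miR-122, miR-124 and miR-9, were scarce. They summed to 19.2 to 21.4 RPM in the mutants and 15.6 to 17.0 RPM in WT, without overlap. Within this sum miR-9 averaged 18.6 RPM in the mutants and 15.0 RPM in WT (limma adjusted p = 0.539). The part of any of these lists in the values below was not tested.

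miR-26a was one of the most abundant miRNAs of the ventricle, and its level did not separate the genotypes. It stood at 40628, 49608 and 59101 RPM in HCM mutant replicates 1, 2 and 3, against 38536, 52939 and 48499 RPM in WT replicates 1, 2 and 3. The groups overlapped, where 20.7% of all tested miRNAs had groups that did not. Mutant replicate 3 was the highest of the 6 libraries, WT replicate 2 came next, and the replicates numbered 1 were the lowest of both groups. The mean was 49779 ± 9237 RPM in the mutants and 46658 ± 7376 RPM in WT (SD, n = 3 each).

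miR-26b was present at a far lower level with the same lack of separation. It stood at 3204, 3907 and 4079 RPM in the mutants, against 3325, 3612 and 3558 RPM in WT. The 3 WT libraries lay close together, whereas 2 mutant libraries lay above all of them and 1 below all of them. The mean was 3730 ± 464 RPM in the mutants and 3498 ± 153 RPM in WT (SD, n = 3 each).

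The minor arm miR-26b* was near the detection floor. It had 19, 7 and 16 reads in the mutants, or 4.45, 1.69 and 6.44 RPM, against 20, 19 and 18 reads in WT, or 5.48, 5.11 and 3.45 RPM. The groups overlapped, with a mutant library at either end. It made up 0.139%, 0.0431% and 0.158% of the reads of both Mir26b arms in the mutants, against 0.165%, 0.141% and 0.0967% in WT. The 95% Wilson interval of the lowest share, in mutant replicate 2, was 0.0209% to 0.0890%. Almost all reads of the Mir26b precursor thus came from the 5′ arm in every library. miR-26b* had a mean below 10 RPM and was not tested. The minor arms of the miR-26a precursors were looked up as miR-26a-1* and miR-26a-2*, were not found under those names, and so were not analysed.

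**Figure D1:**
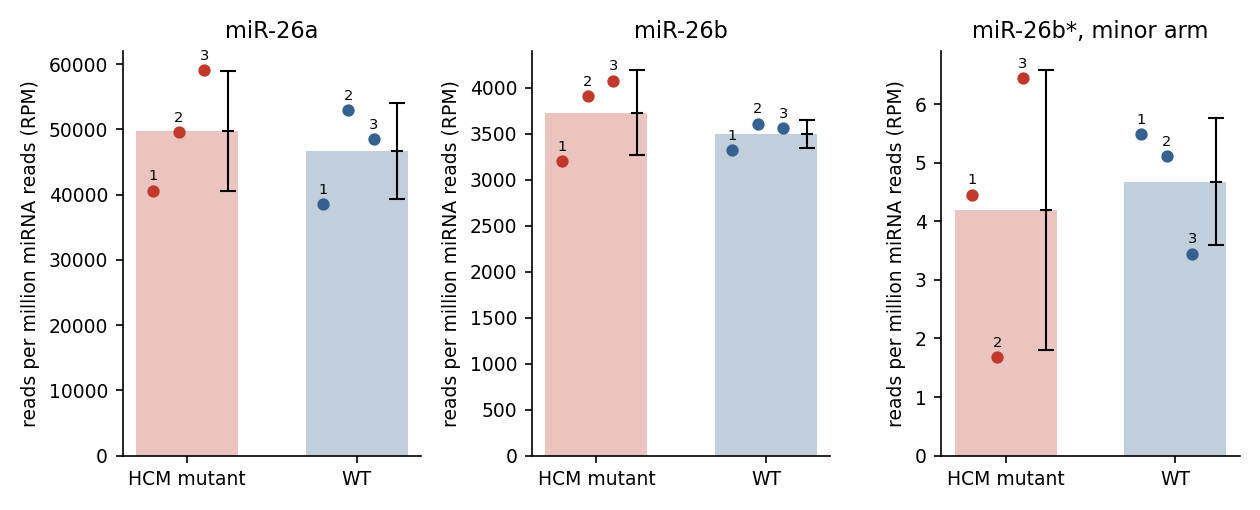
Level in RPM of miR-26a, miR-26b and the minor arm miR-26b* in HCM mutant (red) and WT (blue) left ventricle; dots are libraries with their replicate numbers, bars are means and error lines are SD (n = 3). The groups overlap in all 3 panels, and the miR-26a levels run from 38536 to 59101 RPM.

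On the log2(RPM + 1) scale, the mutants differed from WT by 0.09 ± 0.17 (SE) for miR-26a and by 0.09 ± 0.19 for miR-26b. Neither passed limma with Benjamini-Hochberg adjustment over the 193 tested miRNAs (adjusted p = 0.812 and 0.817). Thus limma called 0 of the 2 members, where it called 5.18% of all tested miRNAs, and the unadjusted p was 0.597 and 0.656. edgeR's quasi-likelihood test and DESeq2 on the recovered reads also called 0 of the 2, beside 5.7% and 6.22% of all tested miRNAs. Two-sided exact permutation tests on mean RPM gave p = 0.7 for miR-26a and p = 0.5 for miR-26b, where 3 against 3 libraries allow no p below 0.1.

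These values bound the difference without showing that the groups were alike. The 95% interval was −0.25 to 0.43 for miR-26a and −0.30 to 0.47 for miR-26b. On the linear scale that is a fold of 0.840 to 1.35 for miR-26a and of 0.811 to 1.39 for miR-26b, so a doubling or a halving of either lay outside its interval. The bounds depended on the settings. Without limma's mean-variance trend the log2 interval was −0.38 to 0.56 for miR-26a and −0.36 to 0.53 for miR-26b. The upper end reached 0.59 for miR-26a without WT replicate 2 and 0.61 for miR-26b without HCM mutant replicate 1. The sign depended on the scaling: the differences lay above 0 with RPM as deposited and below 0 after median-of-ratios scaling (−0.09 for miR-26a and −0.10 for miR-26b). The differences of all tested miRNAs had a median of 0.15, which median-of-ratios scaling brought to −0.02. With RPM as deposited, miR-26a lay at −0.06 and miR-26b at −0.07 relative to that median. The distance from the median moved with single libraries: for miR-26a it was −0.21 without HCM mutant replicate 3 and 0.06 without HCM mutant replicate 1, and for miR-26b it was −0.19 when WT replicate 2 was left out and 0.03 when HCM mutant replicate 1 was. The difference of miR-26a itself was −0.04 without HCM mutant replicate 3 and also −0.04 without WT replicate 1. Of the 193 tested miRNAs, 31 had a smaller absolute difference than miR-26a and 28 a smaller one than miR-26b.

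Counting error was small for miR-26a. Its 95% Wilson interval was 5.88% to 5.94% of all miRNA reads in mutant replicate 3 and 3.83% to 3.87% in WT replicate 1, from 146776 and 140550 reads. The coefficient of variation of miR-26a between libraries was 18.6% in the mutants and 15.8% in WT. For miR-26b it was 12.4% in the mutants and 4.36% in WT. The within-group SD on the log2 scale, pooled over both genotypes, was 0.25 for miR-26a and 0.14 for miR-26b, beside a median of 0.25 over all tested miRNAs. Only 16 of the 193 miRNAs varied less than miR-26b within groups, while 103 varied less than miR-26a.

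Taken as 1 seed family, miR-26a plus miR-26b held 4.38%, 5.35% and 6.32% of all miRNA reads in the mutants, against 4.19%, 5.66% and 5.21% in WT. The groups overlapped, with the lowest share in WT replicate 1 and the highest in mutant replicate 3. The mean share was 5.35% ± 0.967 in the mutants and 5.02% ± 0.753 in WT (SD, n = 3 each).

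Within the family miR-26a supplied most of the reads in every library. miR-26b made up 7.31%, 7.30% and 6.46% of the family in the mutants, against 7.94%, 6.39% and 6.84% in WT. The 2 WT libraries with the highest and the lowest share enclosed all 3 mutants. Their 95% Wilson intervals, 7.81% to 8.08% in WT replicate 1 and 6.28% to 6.49% in WT replicate 2, did not touch. The mean share was 7.02% ± 0.490 in the mutants and 7.05% ± 0.801 in WT (SD, n = 3 each). In reads, miR-26a exceeded miR-26b by 12.7-fold, 12.7-fold and 14.5-fold in the mutants and by 11.6-fold, 14.7-fold and 13.6-fold in WT. Such a ratio between miRNAs also carries any difference in how well library preparation captures them.

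**Figure D2:**
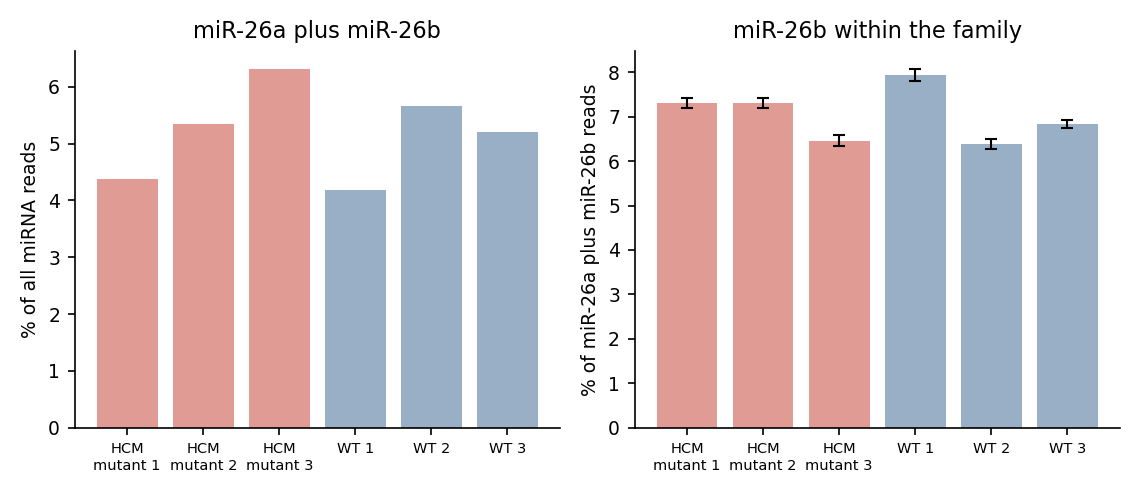
Left, miR-26a plus miR-26b as a percentage of all miRNA reads in each library; right, miR-26b as a percentage of the family's reads, with 95% Wilson intervals. HCM mutant libraries (red) stand left of WT libraries (blue). The family share runs from 4.19% to 6.32% and the miR-26b share from 6.39% to 7.94%, and the genotypes overlap in both.

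Because RPM is a share, the level of miR-26a stands beside that of miR-1, the muscle miRNA that took the most reads. miR-1 stood at 265661, 249195 and 202711 RPM in the mutants, against 325317, 255310 and 300097 RPM in WT. The library with the most miR-1, WT replicate 1, had the least miR-26a, and the one with the least miR-1, mutant replicate 3, had the most. The 5 most abundant miRNAs were miR-1, miR-208a, miR-22, miR-26a itself and miR-125b-5p, so leaving them out does not take out miR-1 alone. When the reads outside these 5 were taken as 100, the family came to 9.41, 12.7 and 13.6 in the mutants and 10.5, 12.6 and 13.4 in WT. Mutant replicate 1 was then the lowest library, mutant replicate 3 stayed the highest, and the groups again overlapped. The mean came to 11.9 in the mutants and 12.2 in WT, so the direction of the small difference turned. The part of miR-1 in the miR-26a levels was not tested further.

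By mean level over the 6 libraries miR-26a ranked 4 among all miRNAs, at rank 6, 3 and 3 in the mutants and 6, 4 and 4 in WT. Above it were miR-1 and miR-208a, the miRNA of a Myh6 intron, whose lowest library of 130217 RPM exceeded every miR-26a value. miR-22, ranked 3, ran from 49123 to 56975 RPM. It exceeded miR-26a in 4 of 6 libraries, and the ranges overlapped. Below it, miR-125b-5p ran from 38573 to 56589 RPM and miR-99a from 29280 to 44215 RPM, each above miR-26a in 2 of 6 libraries. miR-29b, an miRNA that represses collagens, ran from 33621 to 40779 RPM and lay below miR-26a within each of the 6 libraries, though the ranges over all libraries overlapped. The order of miR-22, miR-26a, miR-125b-5p and miR-99a was thus not fixed across libraries.

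miR-26b ranked 30 by mean level, at rank 31, 31 and 32 in the mutants and 30, 32 and 32 in WT. The next miRNAs above it, let-7c, miR-27b and let-7a, exceeded it in all 6 libraries. Those below it were not separated from it. miR-24 exceeded miR-26b in 2 of 6 libraries, with a range of 2586 to 4517 RPM. miR-30a did so in 3, with 1997 to 4103 RPM, and the fibroblast miRNA miR-21 in 2, with 1099 to 6526 RPM. The 2 libraries in which miR-21 lay above miR-26b were HCM mutant replicates 2 and 3, where miR-21 stood at 5498 and 6526 RPM.

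Other miRNAs known to restrain cardiac hypertrophy or fibrosis were set beside the family. The list held miR-1, miR-133a, miR-133b, the miR-29 and miR-30 families, miR-101a, miR-101b and miR-150, 14 in all, of which 13 were tested. limma called 0 of the 13 in either direction, beside 5.18% of all tested miRNAs called, and 2 had an unadjusted p under 0.05, beside 21.8% of all tested miRNAs. edgeR called 0 of them, beside 5.7% of all, and DESeq2 called 1, beside 6.22% of all. Of the 13, 10 had differences below 0 and 3 above, where 56 of the 193 tested miRNAs lay below 0 and 137 above. The median was −0.14 for the 13 against 0.15 over all tested miRNAs. The lowest estimate was that of miR-150, an miRNA of lymphocytes, at −0.48 ± 0.26 (limma adjusted p = 0.292), and it was called as lower without HCM mutant replicate 1 (adjusted p = 0.0495). miR-30a lay at the other end at 0.27 ± 0.22 (limma adjusted p = 0.502). Between these lay miR-1 at −0.30 ± 0.14 and miR-29c at −0.35 ± 0.17 (limma adjusted p = 0.209 and 0.225). miR-1 was called as lower with sample weights in limma (−0.39, adjusted p = 0.0379), and miR-29c with DESeq2 (−0.54, adjusted p = 0.0280). miR-29c was the 1 listed miRNA whose groups did not overlap, where 20.7% of all tested miRNAs had groups that did not.

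miRNAs known to repress Ezh2, as miR-26a does, were the second list, with miR-101a, miR-101b, miR-138 and miR-214. limma called 1 of the 4 as higher, against 5.18% of all tested miRNAs called as higher. That was miR-214, an miRNA of the fibroblast transcript Dnm3os, at 1187 ± 428 RPM in the mutants and 457 ± 155 RPM in WT (SD, n = 3 each). miR-214 rose by a log2 difference of 1.37 ± 0.25, with an adjusted p of 2.09e-04 by limma, and was not called without WT replicate 3 (adjusted p = 0.0701). miR-101a, miR-101b and miR-138 did not pass, with means between 12.2 and 34.3 RPM in the mutants and between 15.5 and 29.5 RPM in WT. At 49779 RPM in the mutants, miR-26a was far above all 4.

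**Figure D3:**
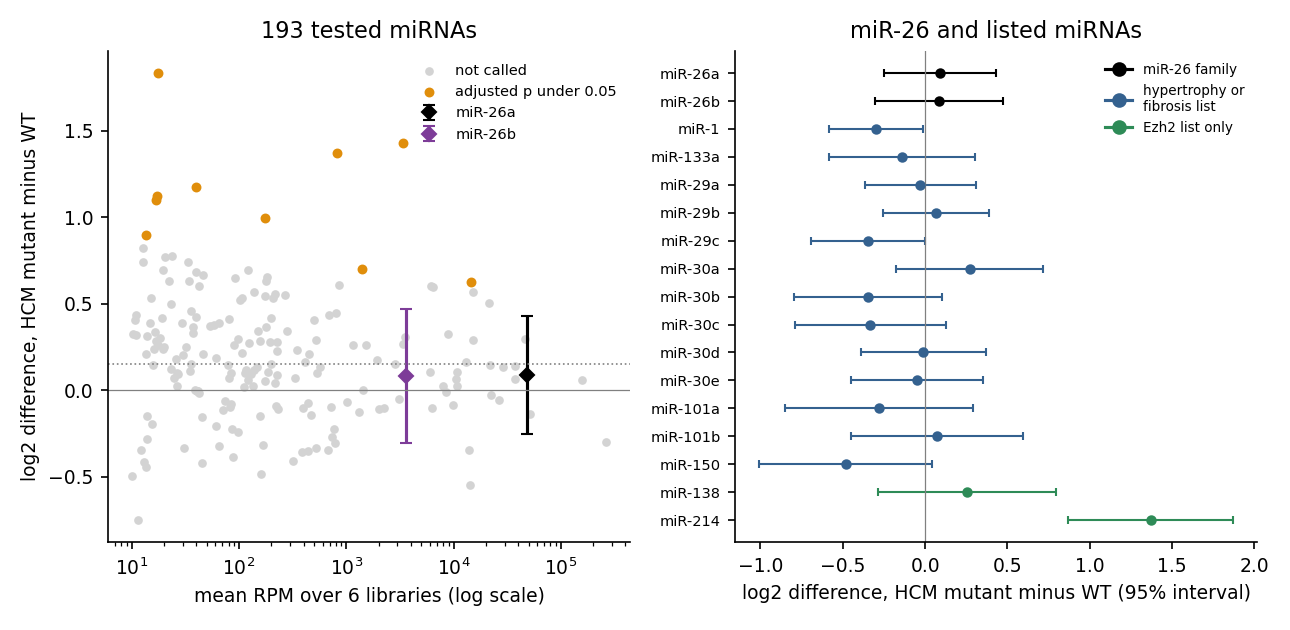
Left, log2 difference (HCM mutant minus WT) against mean RPM on a log axis for the 193 tested miRNAs, with called miRNAs in orange, 95% intervals on miR-26a and miR-26b, and a dotted line at the median of 0.15. Right, the difference with its 95% interval for the family and the listed miRNAs. Both miR-26 intervals span 0, and miR-214 alone among the listed miRNAs was called.

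Across the 6 libraries the members varied largely together. The libraries in falling order were mutant 3, WT 2, mutant 2, WT 3, mutant 1 and WT 1 for miR-26a, and mutant 3, mutant 2, WT 2, WT 3, WT 1 and mutant 1 for miR-26b. The same 4 libraries were thus above the same 2 for both. The likeness of library profiles was measured as the root mean square difference of log2(RPM + 1), with each miRNA centred on its own mean, over the 6 libraries, which all profiles share along with their totals. miR-26b was the second most alike of 192 miRNAs to miR-26a, at 0.12, where the median over all was 0.29. miR-30d was first at 0.11, and miR-187, next after miR-26b, also lay at 0.12.

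miR-30d stood at 6941, 9573 and 8979 RPM in the mutants, against 7079, 9437 and 9124 RPM in WT. As with miR-26a, the replicates numbered 1 were its lowest libraries in both groups. For miR-26b, the most alike were the table's joint entry for the minor arms let-7c-2* and let-7a*, at 0.05, then miR-15a at 0.06 and miR-324-5p at 0.09, and miR-26a ranked 6. The measure favours miRNAs that vary little: on the log2 scale the SD over 6 libraries was 0.23 for miR-26a and 0.13 for miR-26b, and between 0.12 and 0.13 for those 3 entries.

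**Figure D4:**
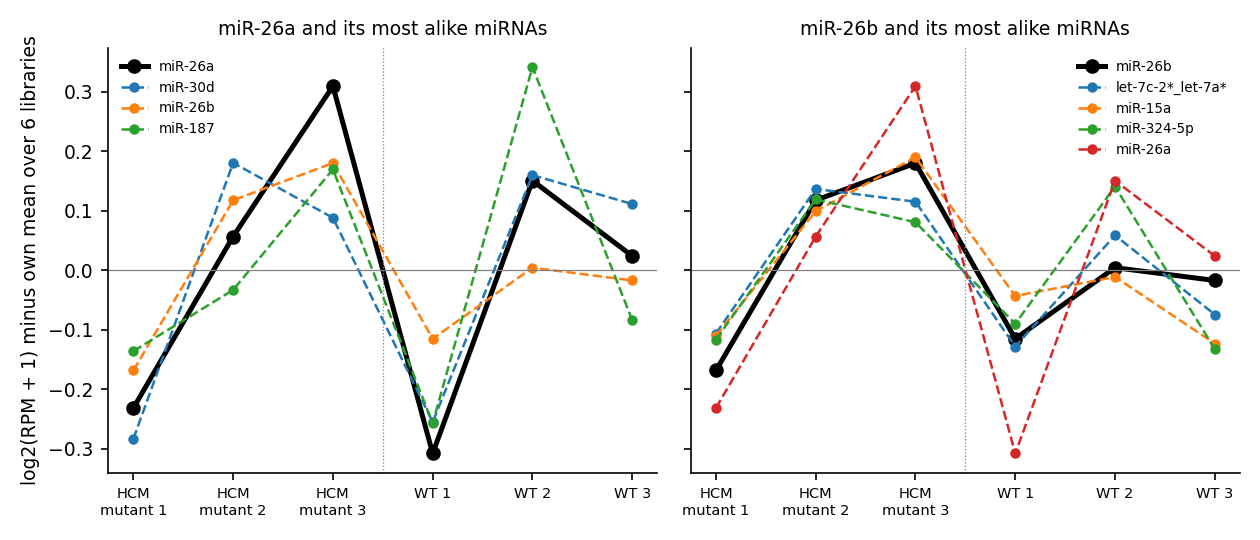
log2(RPM + 1) minus each miRNA's own mean over the 6 libraries, for miR-26a (left, black) and miR-26b (right, black) with the most alike miRNAs (dashed; miR-26a added at right). HCM mutant libraries stand left of the dotted line and WT libraries right of it. miR-26a and miR-26b are lowest in HCM mutant 1 and WT 1 and highest in HCM mutant 3.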

How the data were processed

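Small RNA from the left ventricle of 3 HCM mutant and 3 WT mice was sequenced; per the labels' protocols, RNA came from a miRNA isolation kit and libraries were multiplexed. The deposited values are RPM, reads per 1000000 miRNA reads, computed by the authors; the header only calls them normalised, and the unit was read from the values. The sources used here do not name the aligner, counter, miRNA release or build. Each value was taken as a whole multiple of 1 read's worth, 0.191 to 0.403 RPM, and reads were recovered by rounding. In the check, 100% of values lay within 0.02 reads or, for large counts, within a wider margin in proportion to the count. The check was therefore weaker for abundant miRNAs such as miR-26a. A count of 0 allowed 0.574 to 1.21 RPM (3 reads). As the labels mention no molecular identifiers, Wilson intervals and this floor reflect counting error alone.

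log2(RPM + 1) was tested for the 193 miRNAs that averaged 10 RPM or more, with limma 3.58.1 (trend, R 4.3.3), two-sided, without covariates, with Benjamini-Hochberg adjustment at 0.05. Errors of differences are limma's moderated standard errors. Alternatives used other scalings, pseudocounts, filters, weights, the replicate number as a block, each library left out, and edgeR 4.0.16 with library totals or DESeq2 1.42.0 on recovered reads. edgeR called 11 higher and 0 lower, and DESeq2 8 higher and 4 lower. limma called 10 higher and 0 lower, with 4 lower at an unadjusted p under 0.05. Libraries were taken as separate animals because the titles call them biological replicates. Chi-square comparisons of reads found each of the 15 library pairs to differ beyond sampling noise, so no library was a copy of another. At this depth repeat libraries of 1 animal could differ as well, so the comparisons cannot show that the animals were separate.

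The members, lists and settings were chosen with earlier results of these data known. The named miRNAs were the members, their minor arms, the lists, the 3 miRNAs next above and below each member by mean RPM, the 3 with the most alike profiles, and any that share the seed. Lists came from general knowledge. RefSeq hairpins matched both members. The software was scipy 1.17.1, pandas 2.3.3 and matplotlib 3.10.9 under Python 3.11.15. The limma and edgeR steps were also run on simulated reads, with as many miRNAs raised as lowered and no effect of replicate number. In the data 137 of the 193 differences lay above 0. The simulation therefore does not bear on how the sign depended on the scaling.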

Additional observations from a re-analysis of the deposited data

How the results depend on the processing

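No alternative called miR-26a or miR-26b: over 18 settings each, adjusted p ran from 0.358 to 0.981 for miR-26a and from 0.564 to 0.979 for miR-26b. The sign of the differences was not stable. For miR-26a and miR-26b the differences were −0.094 and −0.098 after median-of-ratios scaling, −0.019 and −0.023 after TMM scaling, −0.044 and −0.047 when the 5 most abundant miRNAs were kept out of the totals, and −0.084 and −0.095 with DESeq2. Those scalings lower all miRNAs about alike, the median too. Relative to the median, miR-26a ran from −0.21 to 0.06 and miR-26b from −0.19 to 0.03 over the 18 settings. With 1 library left out, miR-26a ran from −0.043 (without HCM mutant replicate 3; −0.042 without WT replicate 1) to 0.23 (without HCM mutant replicate 1), and miR-26b from 0.017 to 0.19. The family's share differed by 0.335 percentage points between the genotypes, by −0.148 to 0.819 with 1 library left out, and by −0.285 per 100 reads outside the 5 most abundant miRNAs.

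Calls over all miRNAs numbered 10, all higher, but 37 with sample weights (34 higher, 3 lower), 5 after median-of-ratios scaling (4 higher, 1 lower) and 17 with the replicate block (16 higher, 1 lower); with 1 library left out they ran from 1 (without WT replicate 3) to 27 (without HCM mutant replicate 1; 22 higher, 5 lower), with 6 without WT replicate 1 and 23 without WT replicate 2. The cause was not tested. The list of miRNAs that restrain hypertrophy or fibrosis had 1 member called as lower in each of 3 settings, a different one each time: miR-1 with sample weights, miR-29c with DESeq2 and miR-150 without HCM mutant replicate 1. Its count ran from 0 to 1 over the libraries left out, and the Ezh2 list had 0 without WT replicate 3 and 1 otherwise. With 1 library left out, miR-30a ran from −0.022 (without WT replicate 1) to 0.43.

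The labels do not say that replicate numbers pair the animals. Deviations from the group means correlated between same-numbered libraries at 0.51 for number 1, −0.07 for number 2 and 0.18 for number 3, and some libraries correlated better with another number. With the replicate block the adjusted p was 0.797 for miR-26a and 0.815 for miR-26b. Depth does not limit miR-26a or miR-26b; it limits miR-26b*, which rests on 7 to 20 reads.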

Other observations

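Both replicates numbered 1 were the lowest of their genotype for miR-26a and miR-26b. The same held for 57 of the 193 tested miRNAs, or 29.5%. Between libraries of the same number, HCM mutant minus WT, miR-26a differed by 0.08, −0.09 and 0.29 on the log2 scale for numbers 1, 2 and 3, and miR-26b by −0.05, 0.11 and 0.20. Whether a number stands for a shared litter, batch or day is not given in the labels.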
